A study of Morone chrysops with 54 samples.

Results

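The 7 contigs described here carry the names of enzymes, and of 1 transcription factor, of the exocrine pancreas, and all of them were read in liver RNA of juvenile white bass (Morone chrysops). They are pancreatic lipase (GAZY01130677.1), chymotrypsin A-like (GAZY01116655.1), carboxypeptidase B (GAZY01135154.1), elastase-1-like (GAZY01116026.1), trypsin-2 (GAZY01114144.1), deoxyribonuclease I (GAZY01120272.1) and bHLH15 (GAZY01149623.1), a basic helix-loop-helix protein of class A. They are 7 of the 20914 contigs of the curated transcriptome assembly on which the reads were counted. The contigs were chosen by their measured fold changes, as the study had listed them as lower in Diet 2 or in Diet 5 than in Diet 1, so every difference from Diet 1 below is a description and no test of these contigs. The fish of Diets 3, 4 and 6 were in no comparison that chose the contigs, and tests were made only among those diets.

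The exocrine pancreas makes digestive enzymes in acinar cells, which store them in granules, the proteases as inactive precursors, and release them into ducts leading to the gut. Trypsin, chymotrypsin, elastase and carboxypeptidase B digest proteins, lipase splits dietary fat, and deoxyribonuclease I cuts DNA. bHLH15, known as Mist1 in the mouse, is a transcription factor of secretory cells that maintains the acinar secretory apparatus there. In many bony fishes exocrine pancreas is not a single compact organ but is spread along vessels in the abdomen and can lie inside the liver, where it is called hepatopancreas.

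Livers came from 9 fish on each of 6 diets, each library being 1 fish, with 3 fish from each of 3 tanks per diet. The tested feeds were a low fish meal, high soybean meal feed (Diet 2), a low fish meal feed with poultry by-product meal and soybean meal (Diet 3), a feed with poultry by-product meal and soybean meal and no fish meal (Diet 4), an all-plant feed (Diet 5), and a feed of the commercial protein blend Pro-Cision with soybean meal (Diet 6). The reference feed was a fish meal control (Diet 1), which also held soybean meal, more of it than Diets 3, 4 and 6. Diets 5 and 6 held no fish meal. By the study's methods the fish were not fed in the hours before sampling. One library, Diet 5 replicate 7, held only 755 counts and was left out, which leaves 53 livers with 5964761 to 17336918 counts and a median of 11378553. Levels are given as CPM, the counts of a contig relative to the total of its library, scaled by the trimmed mean of M values (TMM) over the 53 libraries. They are compared between fish for 1 contig, never between contigs, whose lengths were not used.

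All 7 transcripts were read in livers of every diet, though not each in every liver, and at very different amounts from fish to fish. Summed, the 7 contigs took 0.498% to 10.4% of a library's counts in Diet 2 (median 4.82%), 0.142% to 11.7% in Diet 3 (median 4.27%), 0.0262% to 8.01% in Diet 4 (median 3.05%), 0.715% to 9.64% in Diet 5 (median 3.63%, 8 fish) and 0.0108% to 8.81% in Diet 6 (median 2.57%), against 1.10% to 14.8% in Diet 1 (median 10.1%). The ranges of all 6 diets overlapped. In bulk tissue, fewer cells of a type and less RNA per cell cannot be told apart, so these shares are not a measure of how much pancreas a liver sample held. Trypsin-2, elastase-1-like and carboxypeptidase B held places 9, 15 and 16 among all contigs by mean count, an order of counts that also reflects contig length.

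Pooled over the diets, few contigs varied as much between fish on the same feed. The within-diet standard deviation of log2 CPM was 2.43 for pancreatic lipase, 2.69 for chymotrypsin A-like, 2.50 for carboxypeptidase B, 2.39 for elastase-1-like, 2.3 for trypsin-2 and 2.46 for deoxyribonuclease I. It was 1.65 for bHLH15, the least variable member. The median over the 9548 contigs whose counts averaged 5 or more was 0.46, and the 6 enzymes lay between the 99.3 and 99.8 percentiles of that distribution, bHLH15 at 91.7. The spread was not alike in all diets. The mean log2 CPM over the members had an SD of 1.33 in Diet 2, 1.97 in Diet 3 and 2.87 in Diet 4. It was 1.17 in Diet 5, 3.78 in Diet 6 and 1.34 in Diet 1.

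Pancreatic lipase, the fat-splitting enzyme, had its lowest, median and highest level at 55.1, 575 and 1425 CPM in Diet 2 and at 12.9, 549 and 1878 CPM in Diet 3. The same 3 levels were 2.85, 312 and 1012 CPM in Diet 4, 66.3, 322 and 944 CPM in Diet 5, and 0.989, 217 and 1023 CPM in Diet 6. In Diet 1 they were 127, 1804 and 3015 CPM. The median of every tested feed lay below that of Diet 1, yet in each the highest fish was above the lowest fish of Diet 1, and the low ends of Diets 3, 4 and 6 reached levels not seen in Diets 2, 5 and 1.

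Carboxypeptidase B removes basic residues from the ends of peptides that trypsin has cut. Its lowest, median and highest levels were 746, 14535 and 34580 CPM in Diet 2, 305, 10340.4 and 39960 CPM in Diet 3, 47.7, 7266 and 25939 CPM in Diet 4, 1515, 10012 and 28753 CPM in Diet 5, and 18.5, 5186 and 18353 CPM in Diet 6. The Diet 1 fish had 2553, 31246 and 61028 CPM. The order of the diet medians was the same as for lipase, with Diet 1 highest, then Diets 2, 3, 5 and 4, and Diet 6 lowest. No neighbours in that order were separated, since all ranges overlapped.

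Trypsin-2, which activates the other protease precursors, had 2429, 21734 and 43971 CPM as its lowest, median and highest levels in Diet 2, and 689, 18840 and 49824 CPM in Diet 3. These were 107, 12449 and 34727 CPM in Diet 4, 2689, 15190 and 37037 CPM in Diet 5, and 41.8, 9858 and 31666 CPM in Diet 6. The Diet 1 fish had 5940, 44126 and 50098 CPM. In 7 of the 9 Diet 1 fish trypsin-2 lay in a narrow band from 37137 to 50098 CPM, while lipase in the same fish ran from 1152 to 3015 CPM. Elastase-1-like, another pancreatic protease, followed a like course, with diet medians of 18135 CPM in Diet 2, 11388 in Diet 3, 8489 in Diet 4, 11685 in Diet 5 and 6947 in Diet 6, against 33376 in Diet 1. Deoxyribonuclease I had medians of 432, 437, 254, 312 and 217 CPM in Diets 2 to 6 in that order, against 1329 CPM in Diet 1.

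bHLH15, the acinar transcription factor, had lowest, median and highest levels of 4.75, 39.9 and 75.8 CPM in Diet 2, 1.11, 27.4 and 89.8 CPM in Diet 3, 1.28, 17.8 and 49.5 CPM in Diet 4, 4.94, 22.3 and 57.9 CPM in Diet 5, and 1.27, 12.5 and 60.8 CPM in Diet 6. In Diet 1 the levels were 9.85, 67.5 and 127 CPM. The order of its diet medians was that of lipase, carboxypeptidase B and trypsin-2, and again no diet was separated from the next. Chymotrypsin A-like, a protease that trypsin activates, had diet medians of 23.98, 38.5, 19.5, 27.3 and 16.01 CPM in Diets 2 to 6 in that order, against 97.3 CPM in Diet 1. Its 2 highest values in Diets 2 to 6 were 339 CPM in Diet 4 replicate 7 and 228 CPM in Diet 6 replicate 7, whose other enzymes were not the highest of their diets. Those libraries also had the most contigs with a count of all 53, at 13007 in Diet 4 replicate 7 and 13425 in Diet 6 replicate 7.

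**Figure D1:**
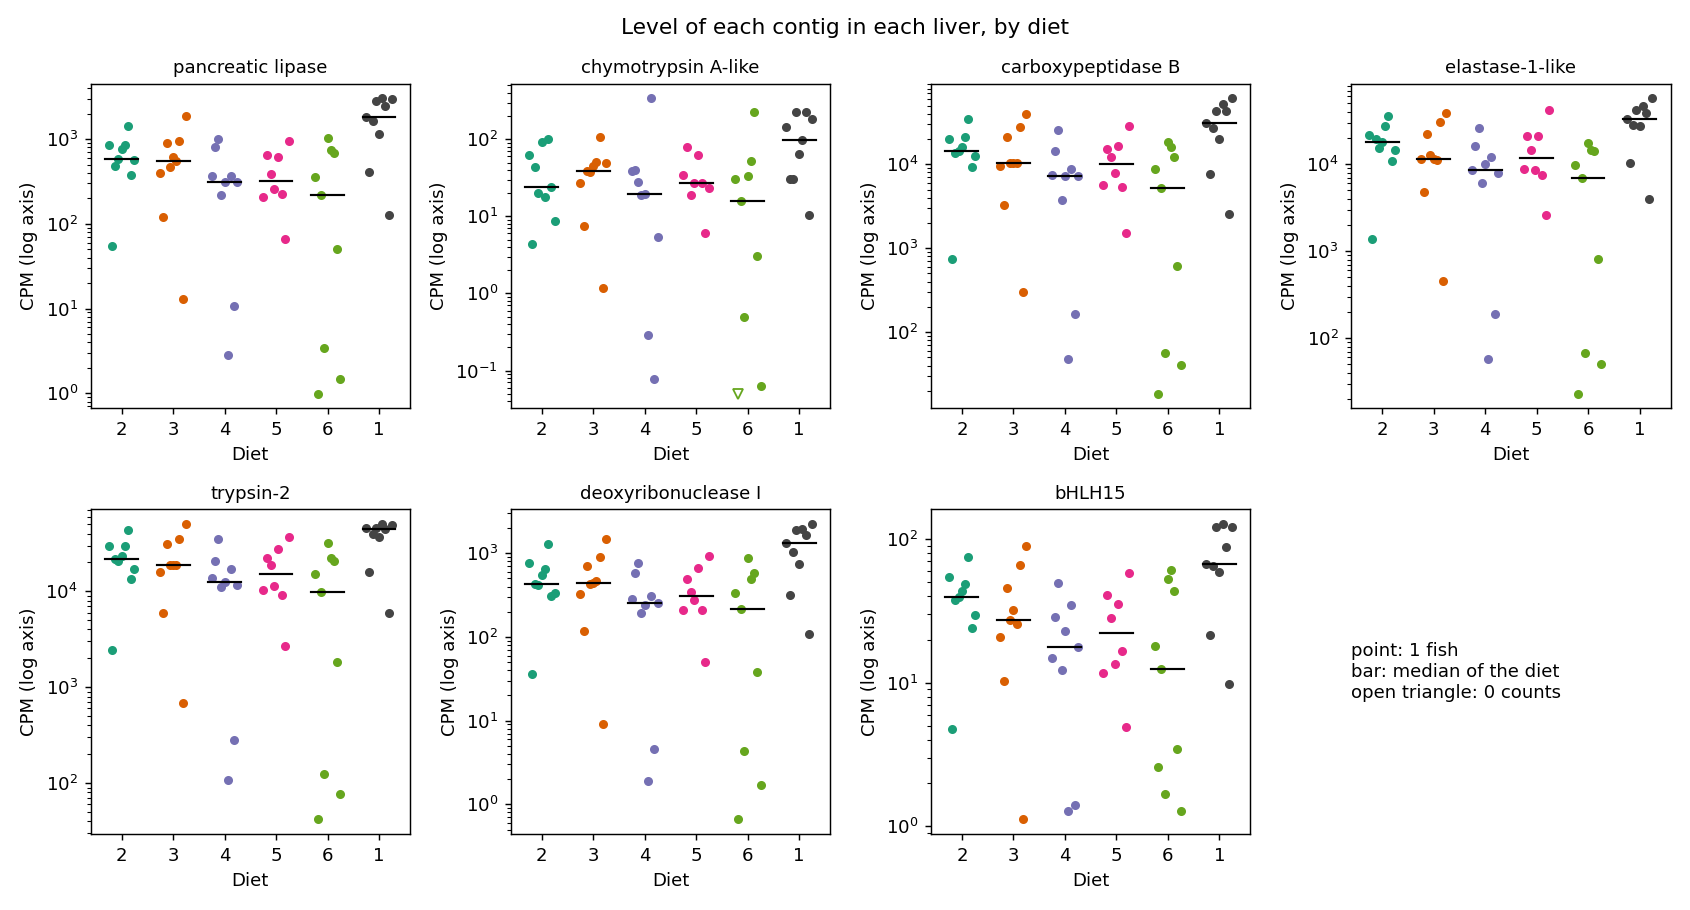
Level of each of the 7 contigs in each of the 53 livers, in CPM on a log axis, with diets along the horizontal axis in the order 2, 3, 4, 5, 6 and 1. Points are fish, black bars are diet medians, and the open triangle is the liver with 0 counts. For lipase the medians run from 217 CPM in Diet 6 to 1804 CPM in Diet 1, and isolated low fish appear in Diets 3, 4 and 6.

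Some livers held almost none of the enzymes. With almost none set at under 1/16 of a contig's median over the 53 livers, 6 fish fell below that level for all 6 enzymes: Diet 3 replicate 8, Diet 4 replicates 6 and 8, and Diet 6 replicates 2, 4 and 9. No fish of Diet 2, 5 or 1 did so for any contig. Diet 6 replicate 8 fell below the level for carboxypeptidase B alone, at 611 CPM against a limit of 656 CPM. The 6 fish carried 6 different T tags, a mark in the column names that is shared by 3 fish of 1 diet and whose meaning, a tank or otherwise, is not given in the sources used here.

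When the 53 livers were placed in order of their mean log2 CPM over the 7 contigs, called the exocrine score here, the score ran between 1.40 and 12.05. The widest gap between neighbours was 1.46, between 4.84 and 6.30, and it set the same 6 fish apart from the other 47. Gaps were also wide among the lowest livers themselves, at 1.10 between 3.74 and 4.84 and 0.83 between the lowest 2, while the next widest gap above the 6 fish was 0.91. These fish were found by their level, so they are described and not compared with the rest.

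Even the library of the lowest liver held counts of every contig but chymotrypsin A-like. Diet 6 replicate 2 had 18 counts of pancreatic lipase, 336 of carboxypeptidase B, 418 of elastase-1-like, 761 of trypsin-2, 12 of deoxyribonuclease I, 47 of bHLH15 and 0 of chymotrypsin A-like, out of 14713298 counts. Its 7 contigs took 0.0108% of the library, with an exact Clopper-Pearson 95% interval of 0.0103% to 0.0114% for counting error only. Where these few reads come from was not tested. The other low livers held 0.0218% in Diet 6 replicate 9, 0.0262% in Diet 4 replicate 6, 0.0270% in Diet 6 replicate 4, 0.0668% in Diet 4 replicate 8 and 0.142% in Diet 3 replicate 8.

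**Figure D2:**
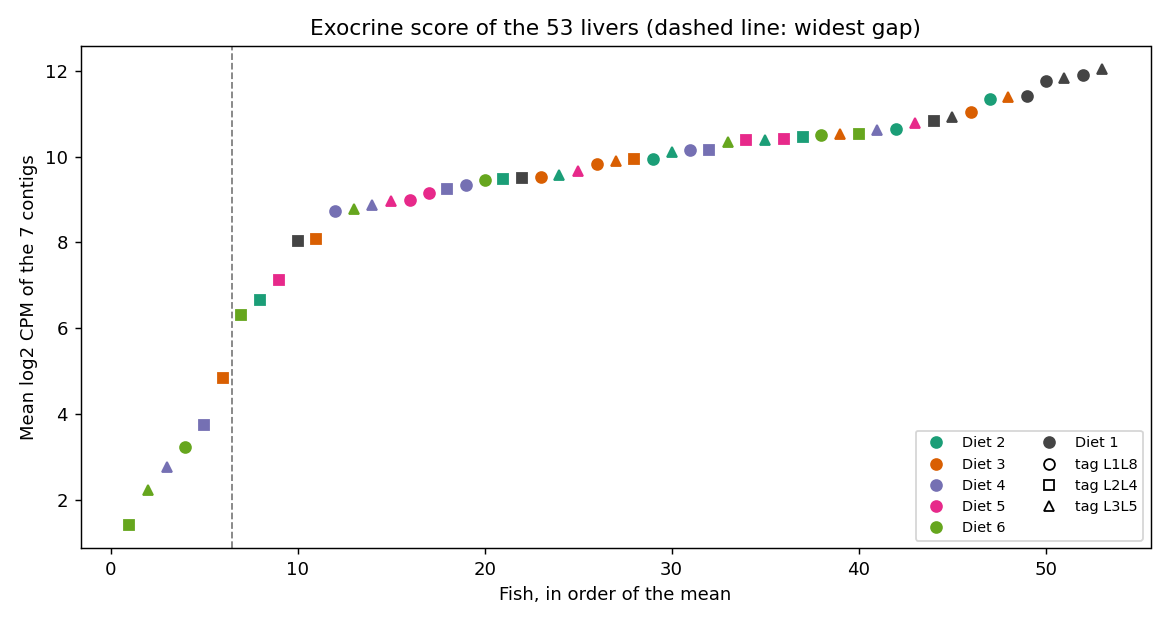
Mean log2 CPM of the 7 contigs (vertical axis) in the 53 livers placed from lowest to highest (horizontal axis), with colours for diets and marker shapes for the L tag. The dashed line marks the widest gap, 1.46 log2 units, and the 6 fish to its left belong to Diets 3, 4 and 6.

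The score also moved with a second mark in the column names, the L tag, which takes the values L1L8, L2L4 and L3L5 in every diet and whose meaning is likewise not given. With the diet means taken out, L2L4 livers averaged -0.96, L1L8 livers 0.70 and L3L5 livers 0.30 on the log2 scale. Among the 17 T tags with 3 fish each, the L2L4 fish was the lowest in 9 and the highest in 6. The 6 livers under the gap were spread over all 3 L tags, with 3, 1 and 2 in L2L4, L1L8 and L3L5, and the next 5 in order, with scores of 6.30 to 8.07, all carried L2L4, as was seen once the livers were in order. The part of this mark in the differences between diets was not tested beyond the fits and within-tag values given below. The score differed by 0.11 to 8.28 between fish of 1 T tag, with a median range of 2.46.

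Against Diet 1 all 7 contigs had negative log2 fold changes in all 5 feeds. Pancreatic lipase stood at -1.46 ± 0.50 in Diet 2, -1.48 ± 0.61 in Diet 3, -2.25 ± 0.72 in Diet 4, -2.13 ± 0.53 in Diet 5 and -2.43 ± 0.95 in Diet 6 (edgeR estimate ± SE). Trypsin-2 had -0.71 ± 0.39, -0.77 ± 0.49, -1.44 ± 0.65, -1.10 ± 0.42 and -1.74 ± 0.87 in the same order of feeds, each closer to 0 than lipase. bHLH15 had -0.91 ± 0.42, -1.10 ± 0.53, -1.88 ± 0.55, -1.56 ± 0.47 and -1.82 ± 0.67. The 5 comparisons share the 9 Diet 1 livers, and the median over the members was -1.005 in Diet 2, -1.11 in Diet 3, -1.88 in Diet 4, -1.56 in Diet 5 and -2.17 in Diet 6, while the median over all contigs tested lay between -0.02 and 0.02 in each.

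By edgeR's quasi-likelihood test a contig was called where its adjusted p over all contigs was under 0.05 and its change more than 1.5-fold. Counts of calls against Diet 1 support nothing about the 7 contigs, because the comparisons of Diets 2 and 5 chose them and the other 3 reuse the same Diet 1 livers. The counts are given only beside those of all contigs. In Diet 5 over Diet 1, 2 of the 7 lay past the threshold, lipase and bHLH15, beside 5.2% of all contigs (2.67% lower). None of the 7 did in Diet 2 over Diet 1 (0.0438% of all contigs, 0.011% lower), in Diets 3 and 4 over Diet 1 (0% in each) or in Diet 6 over Diet 1 (1.14%, 0.562% lower).

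Among Diets 3, 4 and 6, where the contigs could be tested, none of the 7 differed beyond the spread between fish. In Diet 4 over Diet 3, lipase had a log2 fold change of -0.78 ± 0.76, carboxypeptidase B -0.82 ± 0.80 and bHLH15 -0.79 ± 0.61, each with an adjusted p of 0.982 by edgeR, and 0 of 7 passed where 0% of all contigs did. In Diet 6 over Diet 3, the values were -0.95 ± 0.96 for lipase, -1.14 ± 0.98 for carboxypeptidase B, -1.18 ± 0.94 for elastase-1-like and -0.72 ± 0.71 for bHLH15. The adjusted p ran between 0.647 and 0.999 by edgeR, and 0 of 7 passed against 0.493% of all contigs, 0.292% lower. In Diet 6 over Diet 4 the 7 estimates lay between -0.46 and 0.08 with an SE of 0.72 to 1.15, 0 of 7 passed against 0.211% of all contigs, 0.0803% lower, and the adjusted p was at least 0.958 by edgeR. In these 3 comparisons 0 of the 7 contigs had an unadjusted p under 0.05, and DESeq2 called 0 of 7 in each, beside 0 of 16406, 168 of 16574 and 70 of 16566 contigs. With an SE of 0.61 or more in each comparison, these tests do not show that the feeds had like levels.

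Chymotrypsin A-like had the only positive estimates in Diet 4 over Diet 3, at 0.46 ± 0.89, and in Diet 6 over Diet 3, at 0.00 ± 0.94. The first rested on 1 liver, as it was -1.11 without Diet 4 replicate 7. The second was so close to 0 that it turned negative without any single one of 7 livers, and it was -1.29 without Diet 6 replicate 7. Within L tags the differences of mean log2 CPM between these diets ran widely over the members. In Diet 4 over Diet 3 they were -1.16 to 0.40 in L1L8, -0.73 to 0.50 in L2L4 and -3.65 to -2.17 in L3L5, with 3 fish a diet in each. In Diet 6 over Diet 3 they were -2.96 to -1.61 in L1L8, -2.40 to 0.11 in L2L4 and -3.97 to -2.25 in L3L5, and in Diet 6 over Diet 4 they were -2.03 to -0.75, -2.18 to -0.33 and -0.65 to 0.23 in the same order of tags.

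**Figure D3:**
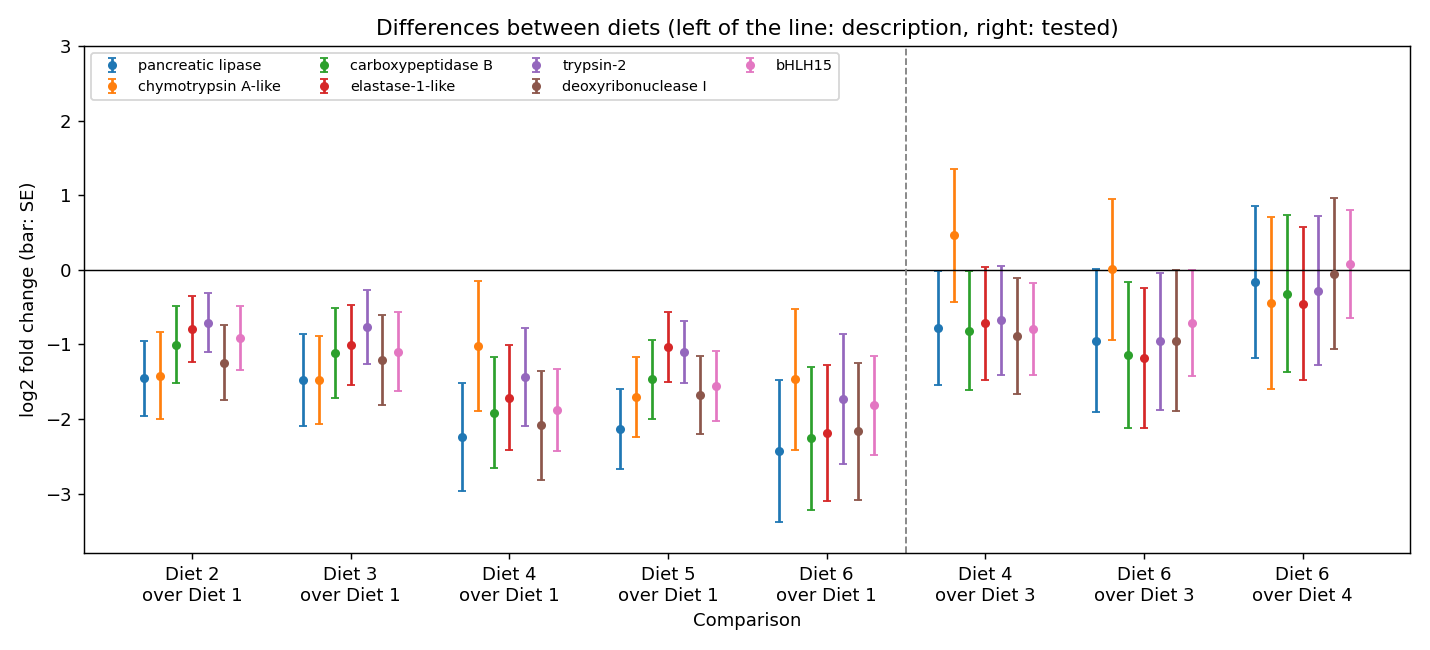
Log2 fold change of each contig (points) with its SE (bars) in 8 comparisons of diets along the horizontal axis. The 5 comparisons with Diet 1 on the left are a description and all lie below 0, down to -2.43 for lipase in Diet 6, and the 3 tested ones on the right have errors that reach or come close to 0.

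The enzymes went up and down together from fish to fish. Over the 21 fish of Diets 3, 4 and 6 above the gap, with diet means taken out, the 15 pairs without chymotrypsin A-like had a Pearson r of 0.948 to 0.992 and a Spearman rho of 0.888 to 0.978. Each had p = 1e-05 by 100000 permutations of fish within diets, the smallest these can give, and an adjusted p of 1.4e-05 over 21 pairs. Without the 2 fish farthest from the median of the first contig of each pair, r was still 0.900 to 0.986. Within L tags it was 0.867 to 0.991 in L1L8, 0.965 to 0.997 in L2L4 and 0.925 to 0.989 in L3L5. The 7 contigs are counted in the same library, so a fish high in one is compared with its own total throughout. A pooled r of these pairs over all 27 fish was not formed, since the 6 low fish stood apart.

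Chymotrypsin A-like followed the other contigs less closely. Its 6 pairs had r of 0.630 to 0.706 and rho of 0.578 to 0.709, with permutation p of 0.00095 to 0.00687 for r, and all 6 passed adjustment over the 21 pairs with an adjusted p of at most 0.00687 for r and 0.00798 for rho. With lipase its r was 0.637, and it was 0.359 without the 2 fish farthest from the lipase median, so the size of that r leans on those fish. Its rho with lipase, by ranks of all 21 fish, was 0.7. In the other 5 pairs the fish left out were those farthest from the chymotrypsin A-like median, and r was then 0.608 to 0.663, which cannot be set against the value for lipase. Within L tags its r was 0.618 to 0.865 in 8 L1L8 fish, 0.930 to 0.956 in 6 L2L4 fish and 0.569 to 0.658 in 7 L3L5 fish. As a description over the 47 fish of all diets above the gap, r with the mean of the other 6 contigs was 0.732 for chymotrypsin A-like and 0.975 to 0.985 for the rest.

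Ratios of one contig to another within a fish do not depend on the library total. The steadiest of the 21 ratios was elastase-1-like to trypsin-2, with a within-diet standard deviation of 0.22 on the log2 scale over the 53 fish, where elastase-1-like and trypsin-2 alone had 2.39 and 2.3. Lipase to deoxyribonuclease I had 0.24 and lipase to carboxypeptidase B 0.26. The least steady was chymotrypsin A-like to carboxypeptidase B, with 1.11 over the 48 fish that had at least 10 counts of both. That ratio ran between -10.47 in Diet 2 replicate 9 and -4.71 in Diet 4 replicate 7, with a median of -8.22, and Diet 6 replicate 7 came next to the top at -5.73. The lowest livers all carried the tag L3L5, with Diet 4 replicate 9 at -10.37, Diet 5 replicate 9 at -10.27 and Diet 2 replicate 6 at -10.20 next. Other L3L5 livers were higher, such as Diet 3 replicate 6 at -7.70 and Diet 5 replicate 6 at -7.62. The part of the L tag in the spread of this ratio was not tested. Lipase to carboxypeptidase B ran only between -4.97 and -3.62 over all 53 fish.

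Several ratios to carboxypeptidase B shifted with its level among the fish above the gap. Within diets, over these 47 fish, log2 trypsin-2 rose by 0.77 for each unit of log2 carboxypeptidase B (95% interval 0.73 to 0.81) and log2 elastase-1-like by 0.86 (0.83 to 0.90). The slope was 0.92 for both lipase (0.87 to 0.97) and deoxyribonuclease I (0.88 to 0.97), 0.81 for bHLH15 (0.74 to 0.87) and 0.77 for chymotrypsin A-like (0.53 to 1.02). A slope of 1 would mean a constant ratio, which the interval of chymotrypsin A-like includes, and these intervals take each fish as independent. Carboxypeptidase B is both the measure of amount and the denominator here. The slopes therefore cannot tell a shift of the other contigs from one of carboxypeptidase B itself. With the 6 low fish included the slopes were 0.97 for lipase (0.94 to 0.997), 0.97 for chymotrypsin A-like (0.84 to 1.11), 0.95 for elastase-1-like (0.93 to 0.98), 0.91 for trypsin-2 (0.88 to 0.95), 0.98 for deoxyribonuclease I (0.95 to 1.01) and 0.63 for bHLH15 (0.57 to 0.69). Over all 53 fish the intervals of chymotrypsin A-like and deoxyribonuclease I thus held 1, and that of lipase ended just under it. Trypsin-2 to carboxypeptidase B, for example, was 1.70 in Diet 2 replicate 2 at 746 CPM of carboxypeptidase B and -0.31 in Diet 1 replicate 9 at 61028 CPM. These were the highest and lowest values of that ratio, and the first stood apart from its diet. In the 6 low fish, with less carboxypeptidase B than either, the ratio lay between 0.78 and 1.18.

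bHLH15 was high for the amount of carboxypeptidase B in 5 of the 6 low livers. Its log2 ratio to carboxypeptidase B was -2.82 in Diet 6 replicate 2, -4.98 in Diet 6 replicate 9, -5.04 in Diet 6 replicate 4, -5.18 in Diet 4 replicate 6, -6.83 in Diet 4 replicate 8 and -8.05 in Diet 3 replicate 8. In the other 47 fish it lay between -9.18 and -7.28, a range that holds Diet 3 replicate 8. In these 6 livers bHLH15 stood at 1.11 to 2.58 CPM, with 14 to 47 counts each, while carboxypeptidase B ran between 18.5 and 305 CPM. Lipase to carboxypeptidase B in the same 6 livers lay between -4.78 and -3.94, inside its range over the other fish. Where the bHLH15 reads of these livers come from was not tested.

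**Figure D4:**
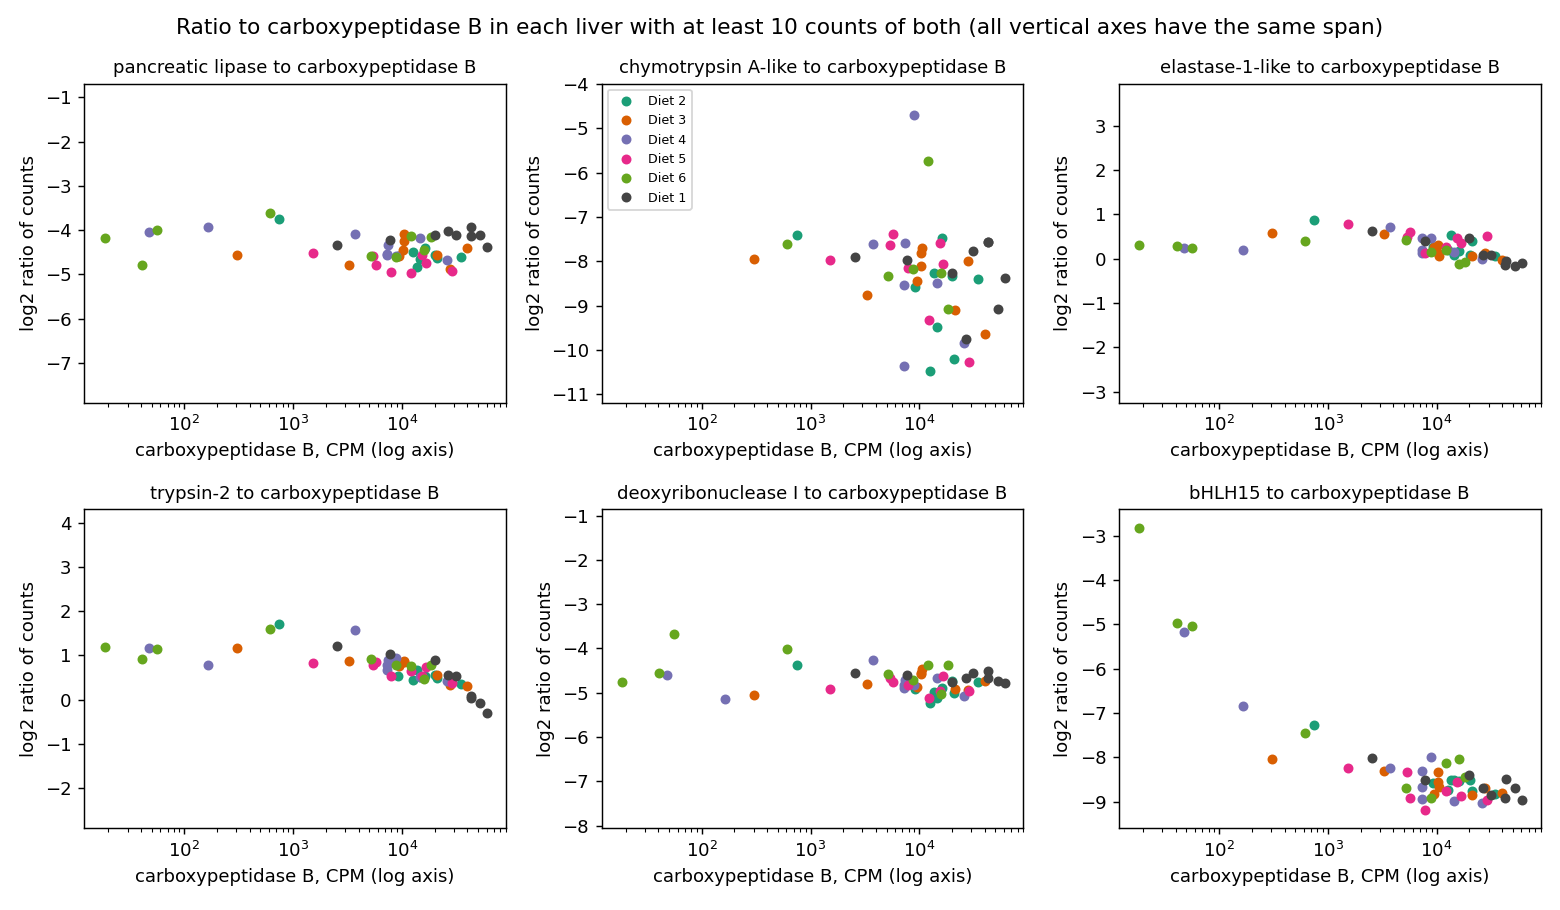
Log2 ratio of the counts of each of the other 6 contigs to carboxypeptidase B (vertical axes, all of the same span) against carboxypeptidase B in CPM on a log axis, with points for fish that had at least 10 counts of both and colours for diets. Trypsin-2 to carboxypeptidase B falls to -0.31 at the right end, bHLH15 to carboxypeptidase B climbs to -2.82 at the left end, and chymotrypsin A-like scatters between -10.47 and -4.71.

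No ratio differed between Diets 3, 4 and 6 past the test. Of 63 tests, 21 ratios in 3 comparisons, 0 passed the adjustment by two-sided exact permutation of fish, 6 had an unadjusted p under 0.05, and the smallest adjusted p was 0.343. Elastase-1-like to bHLH15 averaged 7.15 ± 2.08 in Diet 6 and 8.79 ± 0.18 in Diet 3 (SD, n = 9 each), with an exact permutation p of 0.0109 and an adjusted p of 0.343. With a minimum of 100 counts of both contigs, which leaves 5 and 8 fish, the means were 8.57 ± 0.52 in Diet 6 and 8.81 ± 0.18 in Diet 3. Elastase-1-like to deoxyribonuclease I averaged 4.66 ± 0.37 in Diet 6 and 5.06 ± 0.22 in Diet 4 (SD, n = 9 each), with the same exact p of 0.0109 and adjusted p of 0.343. In Diet 4 over Diet 3 the smallest exact p was 0.115, with an adjusted p of 0.517, for lipase to deoxyribonuclease I, at 0.45 ± 0.31 in Diet 4 and 0.27 ± 0.17 in Diet 3 (SD, n = 9 each). With 9 fish against 9 the smallest p possible is 4.11e-05.

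Against Diet 1 the ratios are a description only. Lipase to elastase-1-like averaged -4.80 ± 0.25 in Diet 2, -4.73 ± 0.38 in Diet 3, -4.61 ± 0.32 in Diet 4, -5.21 ± 0.16 in Diet 5 and -4.49 ± 0.38 in Diet 6, against -4.29 ± 0.36 in Diet 1. Lipase to trypsin-2 averaged -5.15 ± 0.21, -5.24 ± 0.32, -5.19 ± 0.32, -5.41 ± 0.18 and -5.23 ± 0.28 in Diets 2 to 6 in that order, against -4.60 ± 0.57 in Diet 1 (SD over 9 fish, 8 in Diet 5). On average, Diet 5 livers held the least lipase for their elastase and trypsin, and Diet 1 livers the most. Within Diet 1, lipase to trypsin-2 was -5.55 in replicate 8, its lowest liver by exocrine score, and -4.06 in replicate 9, its highest. The part of the enzyme amount in these averages was not tested. Chymotrypsin A-like to bHLH15 averaged -0.27 ± 0.93 in Diet 2, 0.17 ± 0.59 in Diet 3, 0.43 ± 1.62 in Diet 4 (7 fish), 0.43 ± 0.94 in Diet 5 (8 fish) and 0.41 ± 1.09 in Diet 6 (6 fish), against 0.36 ± 0.76 in Diet 1, and each feed differed from Diet 1 by less than the SD of its own fish.

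Of 2 contigs of the endocrine pancreas, one was seen in few livers and the other was low throughout. Insulin, the hormone of the endocrine islets, reached 10 counts in only 5 livers, at 11.8 CPM in Diet 3 replicate 6, 0.813 CPM in Diet 5 replicate 4, 9.43 CPM in Diet 6 replicate 5, and 21.7 and 40.2 CPM in Diet 1 replicates 6 and 7, and it had no count in 40 livers. Within diets, over the 21 fish above the gap, its r with the score was 0.17. Islet regulator Nkx-6.1 had diet medians of 0.65, 0.64, 0.29, 0.64 and 0.24 CPM in Diets 2 to 6 in that order, against 2.65 CPM in Diet 1. It reached at most 5.46 CPM, was at or below 0.636 CPM in the 6 low fish, and had an r of 0.65 with the score over the same 21 fish. In the 3 tested comparisons 0 of these 2 contigs passed. Of all contigs 0% passed in Diet 4 over Diet 3, 0.493% in Diet 6 over Diet 3 and 0.211% in Diet 6 over Diet 4. At such shares a count of 0 says little about 2 contigs, and the part of islet tissue in the results was not tested.

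The summed level of contigs of the general machinery of protein secretion in the livers with almost no enzyme ran on both sides of its median over all livers. Of 11 contigs of the endoplasmic reticulum, from the chaperone 78 kDa glucose-regulated protein to derlin-2-like, 0 of 11 passed in Diet 4 over Diet 3 (4 positive, 7 negative, median -0.17), 0 of 11 in Diet 6 over Diet 3 (4 positive, 7 negative, median -0.30) and 0 of 10 tested in Diet 6 over Diet 4 (5 positive, 5 negative, median 0.00). Of all contigs 0%, 0.493% and 0.211% passed in these comparisons, so counts of 0 say little about the list. The members had medians of -0.78, -0.95 and -0.28 in these comparisons. Within diets over the 21 fish above the gap, the r of single machinery contigs with the score ran between -0.21 for protein disulfide-isomerase and 0.53 for protein disulfide-isomerase-like, which folds proteins in the same compartment. In the 6 low fish the list summed to 2086 to 3046 CPM. Over all 53 livers, the low fish included, it summed to 1604 to 4100 CPM, with a median of 2515 CPM. That sum was carried by protein disulfide-isomerase, Sec61 subunit beta and translocon-associated protein subunit delta, with medians of 1013, 691 and 477 CPM. Protein disulfide-isomerase-like, by contrast, stood at 0.506 to 4.32 CPM in the low fish, which hold the lowest of its 0.506 to 19.4 CPM over all livers.

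Summed levels of liver plasma proteins in the livers with almost none of the enzymes ran on both sides of the median over all livers. Over 8 plasma proteins of hepatocytes, among them ceruloplasmin and complement C5, the 6 low fish held 26003 to 53513 CPM. All 53 livers, the low fish included, held 18348 to 67984 CPM, with a median of 40519 CPM. The largest part of that sum was alpha-2-HS-glycoprotein-like, with a median of 21594 CPM. These 8 contigs could only be drawn from those the study had listed as differing from Diet 1 in some feed, Diet 6 included. Their calls in Diet 6 are therefore a description. In Diet 6 over Diet 3, 0.493% of all contigs were called and 0.292% lower. There 2 of the 8 plasma proteins fell, alpha-2-HS-glycoprotein-like at -1.02 ± 0.18 (adjusted p = 0.0192, edgeR) and ceruloplasmin at -0.85 ± 0.18 (adjusted p = 0.0379, edgeR). In Diet 6 over Diet 4, with 0.211% of all contigs called and 0.0803% lower, only ceruloplasmin did, at -0.82 ± 0.16 (adjusted p = 0.0327, edgeR). In Diet 4 over Diet 3, 0 of 8 passed where 0% of all contigs did. The 6 contigs of intestinal brush border summed to 79.1 to 134 CPM in the low fish and 36.1 to 134 CPM over all livers, so that all 6 low fish lay above the median of 72.7 CPM and one of them was the highest. Aminopeptidase Ey-like, which made up most of that sum, stood at 56.2 to 121 CPM in the low fish. Its medians were 50.1, 54.2 and 86.0 CPM in Diets 3, 4 and 6, and 50.1 CPM over all livers. Its r with the score was -0.51 over the 27 fish of Diets 3, 4 and 6 and -0.14 over the 21 above the gap. Of the brush border contigs 0 of 6 passed in each tested comparison. Of all contigs 0% passed in Diet 4 over Diet 3, 0.493% in Diet 6 over Diet 3 and 0.211% in Diet 6 over Diet 4. At such shares a count of 0 says little about a list this short. These contigs, too, could only be drawn from those the study had listed as differing from Diet 1. The 1 red blood cell contig, hemoglobin subunit beta-A-like, stood at 11.6 to 49.3 CPM in the low fish and did not pass either. Over all livers it ran from 0 to 125.5 CPM, with a median of 19.6 CPM. The part of these cell types in the results was not tested.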

How the data were processed

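Liver RNA of 54 white bass was sequenced as stranded poly(A) libraries, 1 library per fish, 9 fish per diet. Per the study's methods and the submitters' processing notes, the authors trimmed reads with Trim Galore 0.6.5 and cutadapt 2.7, aligned them with Bowtie2 2.3.4.1 to a white bass transcriptome assembly, and deposited estimated counts per contig from eXpress 1.5.1, written as whole numbers. These correct for length and fragment bias within a contig and are not scaled between libraries, and reads shared by contigs are divided by the program's model. By the study's methods the assembly had been curated first. Similar contigs were clustered, duplicates were removed, and only the longest contig was kept of those with the same description. How reads of closely related genes were assigned to the contigs that remained was not tested. Contig names came from the study's own lists, which name 977 contigs, all found in the files. Those lists hold contigs that the study called between a tested feed and the fish meal control. The added lists of other cell types could thus only be drawn from contigs already chosen in these livers. The columns of fold changes and p-values in those lists were not used.

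Contigs with a mean count of 5 or more in a comparison were tested by edgeR 4.0.16 (quasi-likelihood, TMM, R 4.3.3) between 2 diets at a time, with Benjamini-Hochberg adjustment over all contigs, and called at an adjusted p under 0.05 and a change over 1.5-fold. As alternatives, DESeq2 1.42.0, other size factors and filters, a replicate block, a term for the L tag and fits without each library in turn were run. The edgeR step was tested on simulated counts. Log2 levels and ratios used 0.5 added to each count, ratios at least 10 counts of both contigs, and the tests of ratios and correlations are permutation tests in SciPy 1.17.1. Members, lists and tests were chosen with earlier results of these data known, and the division of fish at the widest gap was chosen after seeing the values. Named are all 7 members, the list contigs behind a count, the ratios with the smallest and largest spread and the smallest p in each comparison, and the 5 named contigs most like the score; other ratios were named after their values were seen. By the study's methods the 9 fish of a diet came from 3 tanks, with 3 fish each, and the labels do not tie fish to tanks. The tests take fish as independent, so p-values measure the spread between fish and may be too small. Intervals of shares cover counting error only.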

Additional observations from a re-analysis of the deposited data

Results flagged for a closer look

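In each diet the fish farthest from the rest was sought for 7 levels and 21 ratios, 168 groups in all, by Dixon's criterion at its 95% level. It set apart 17 fish values where chance would give about 8.4 (1 in 20), and many of them are the same fish in several contigs that vary together. Diet 2 replicate 2 was the lowest of its diet, in log2 CPM, for pancreatic lipase (5.79 against a diet median of 9.17), carboxypeptidase B (9.54 against 13.83), elastase-1-like (10.41 against 14.15), trypsin-2 (11.25 against 14.41), deoxyribonuclease I (5.16 against 8.75) and bHLH15 (2.26 against 5.32). Diet 3 replicate 8, one of the 6 livers with almost none, was the lowest for elastase-1-like (8.83 against 13.48), trypsin-2 (9.43 against 14.20), deoxyribonuclease I (3.20 against 8.77) and bHLH15 (0.20 against 4.78). No level was set apart in Diets 4 and 6, which each hold several livers with almost none. The criterion weighs only the single most extreme fish against its neighbour, so it can miss several low fish in a diet.

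Among log2 ratios, Diet 2 replicate 2 was the highest of its diet for lipase to carboxypeptidase B (-3.76 against a median of -4.59) and the lowest for carboxypeptidase B to trypsin-2 (-1.70 against -0.54) and carboxypeptidase B to bHLH15 (7.28 against 8.53). Diet 4 replicate 8 was the highest for lipase to deoxyribonuclease I (1.21 against 0.36). Diet 6 replicate 7 was the highest for chymotrypsin A-like to elastase-1-like (-5.94 against -8.24) and to trypsin-2 (-6.50 against -9.08), over the 6 fish of Diet 6 with enough counts. Diet 1 replicate 8 was the lowest for lipase to bHLH15 (3.68 against 4.56).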

How the results depend on the processing

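The count of members called in Diet 5 over Diet 1 was the least stable, and it supports nothing about the contigs, which that comparison helped to choose: 2 as reported, 6 by DESeq2 (beside 709 of 16204 contigs, 337 lower), 1 with no filter on low counts, 5 with the replicate block, 1 with the L tag as a covariate, 4 with Diet 5 replicate 7 kept, and 1 to 6 when single libraries were left out (6 without Diet 1 replicate 8, 4 without Diet 1 replicate 2 or Diet 5 replicate 9, and 1 without any single one of 11 others). In Diet 3 over Diet 1 the count was 1 with the replicate block in place of 0. The counts of 0 in the other comparisons of diets stayed 0 under every alternative run for them, and so did the count of 0 ratios past the test, the block included. All 21 pairs passed in each setting tried for them. Livers with almost none of at least 6 of the 7 contigs were 6 as reported, 7 at 1/8 of the median and 5 at 1/32, where bHLH15 had 0 such livers. Replicate numbers were not taken to pair the fish, since in no comparison did all same-numbered pairs have a correlation of deviations over 0.1 (lowest -0.27, and 7 of 9 pairs over 0.1 in Diet 4 over Diet 3). They are not without content, as in every diet the L tag follows the replicate number, and the score minus its diet mean averaged between -2.55 in replicate 8 and 1.88 in replicate 7.

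Signs turned only for differences smaller than their errors. Chymotrypsin A-like in Diet 4 over Diet 3 (0.46) was -1.01 by DESeq2, -0.74 with the replicate block, -0.17 with the L tag and -1.11 to 0.81 with single libraries left out. In Diet 6 over Diet 3 (0.00) it was -1.32 with the block, -0.34 with the L tag and -1.29 to 0.34 with libraries left out. In Diet 6 over Diet 4, bHLH15 (0.08) was -0.56 with the block, and with single libraries left out the values ran over -0.57 to 0.18 for lipase, -1.76 to 1.14 for chymotrypsin A-like, -0.67 to 0.12 for carboxypeptidase B, -0.65 to 0.043 for trypsin-2, -0.50 to 0.28 for deoxyribonuclease I and -0.25 to 0.37 for bHLH15. The cause was not tested beyond these settings. Low livers set the limit of depth, as the 6 held 0 to 15 counts of chymotrypsin A-like, and its ratios are given for only 1 of them.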

Other observations

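Among contigs with a name, the 5 whose log2 level was most like the mean log2 CPM of the 7 contigs were picked by their within-diet r over the 27 fish of Diets 3, 4 and 6. By that r they held places 5, 13, 17, 20 and 21 among 9541 contigs, and only 4 of the first 20 have a name. The 6 low fish weigh heavily in that choice, so the r over the 21 fish above the gap is given here, from the same libraries. It was 0.888 for centromere protein F-like, 0.708 for vitelline membrane outer layer protein 1 homolog, 0.800 for excitatory amino acid transporter 2, 0.912 for chloride channel protein 2-like and 0.929 for reticulon-1. Centromere protein F acts at kinetochores in dividing cells, vitelline membrane outer layer protein 1 is named after a coat protein of the bird egg, excitatory amino acid transporter 2 takes up glutamate, and reticulon-1 shapes the endoplasmic reticulum. Their levels in the 27 fish ran between 0 and 113 CPM for centromere protein F-like, 0 and 197 CPM for vitelline membrane outer layer protein 1 homolog, 0 and 8.55 CPM for the glutamate transporter, 0.0633 and 22.2 CPM for the chloride channel and 7.13 and 179 CPM for reticulon-1.

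The library left out for its depth, Diet 5 replicate 7, held 14.04% of its 755 counts in the 7 contigs, with an exact Clopper-Pearson 95% interval of 11.6% to 16.7%. These were 41 of elastase-1-like, 34 of trypsin-2, 25 of carboxypeptidase B, 5 of pancreatic lipase and 1 of deoxyribonuclease I, with 0 of chymotrypsin A-like and 0 of bHLH15.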
